A study of Mus musculus with 7 samples.

Results

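The Slc25 genes encode the carriers that move metabolites across the inner membrane of mitochondria. Their members were taken by name, as every gene whose symbol in the array annotation is Slc25a followed by a number. This gave 44 genes among the 18194 measured, covered by 93 probe sets that name 1 gene. The choice used names only and no measured value.

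The study profiled colon of inbred C57BL/6 mice on Affymetrix mouse whole-genome arrays, to characterize how the organ develops. There was 1 array for each embryonic day from E13.5 through E18.5, 6 in all, and 1 array of adult colon at 8 weeks after birth. No genotype or treatment other than age separated the arrays, and the number of mice behind each RNA sample is not given in the sources used here. With no replicate at a stage, the error of a value was read from the scatter of the embryonic arrays around a straight line, and the adult array was assumed to scatter alike.

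Mitochondria burn fuels behind a membrane that charged molecules cannot cross unaided. Slc25 carriers exchange ADP for ATP, bring in phosphate, move citrate, malate, aspartate and glutamate between mitochondrion and cytosol, and admit acylcarnitines, the form in which long-chain fatty acids enter for oxidation. Others supply cofactors, nucleotides, iron or glutathione. In the colon, the lining epithelium of the adult is known to depend on oxidation of short-chain fatty acids made by bacteria.

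All values are log2 levels after RMA, a method that corrects background, gives the arrays a common distribution and sums up the probes of a probe set. A gene was given the median over its probe sets, and levels of different genes are not comparable on this scale. The embryonic slope is the change in log2 level per day over the 6 embryonic arrays, and the adult difference is the adult array minus the level that the line gives at E18.5. A slope was called when the adjusted p of limma, corrected by Benjamini-Hochberg over all genes, was under 0.05, and an adult difference when it was also at least 1 on the log2 scale.

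Along the embryonic days, 5 Slc25 genes rose and 2 fell. The genes that rose were Slc25a1, Slc25a10, Slc25a20, Slc25a28 and Slc25a39, and those that fell were Slc25a17 and Slc25a53. Of all genes, 9.12% rose and 10.4% fell, so the family's shares of 11.4% and 4.55% lay near or under the background. In the adult, Slc25a16, Slc25a34 and Slc25a35 were higher and Slc25a4 was lower than the fitted E18.5 level, against 4.23% and 3.26% of all genes. Together 11 of the 44 genes were called in the slope or in the adult, where 23.3% of all genes were. The other 33 genes were called in neither. Slope calls became fewer, in the family and over all genes, when any embryonic array but E15.5 was left out. Of the 44, none passed with E18.5 removed and 2 with either E14.5 or E16.5 removed. There were 3 with either E13.5 or E17.5 removed, and 10 with E15.5 removed. Over all genes, 3544 passed with every array and 1886 with E18.5 removed. Removal of E14.5 or E16.5 left 2052 and 2586, of E13.5 or E17.5 2003 and 1884, and of E15.5 4599. Slc25a20 and Slc25a53 were lost only without E18.5, with slopes of 0.21 and -0.14 log2 per day there. The 4 adult calls stood whichever embryonic array was left out.

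**Figure D1:**
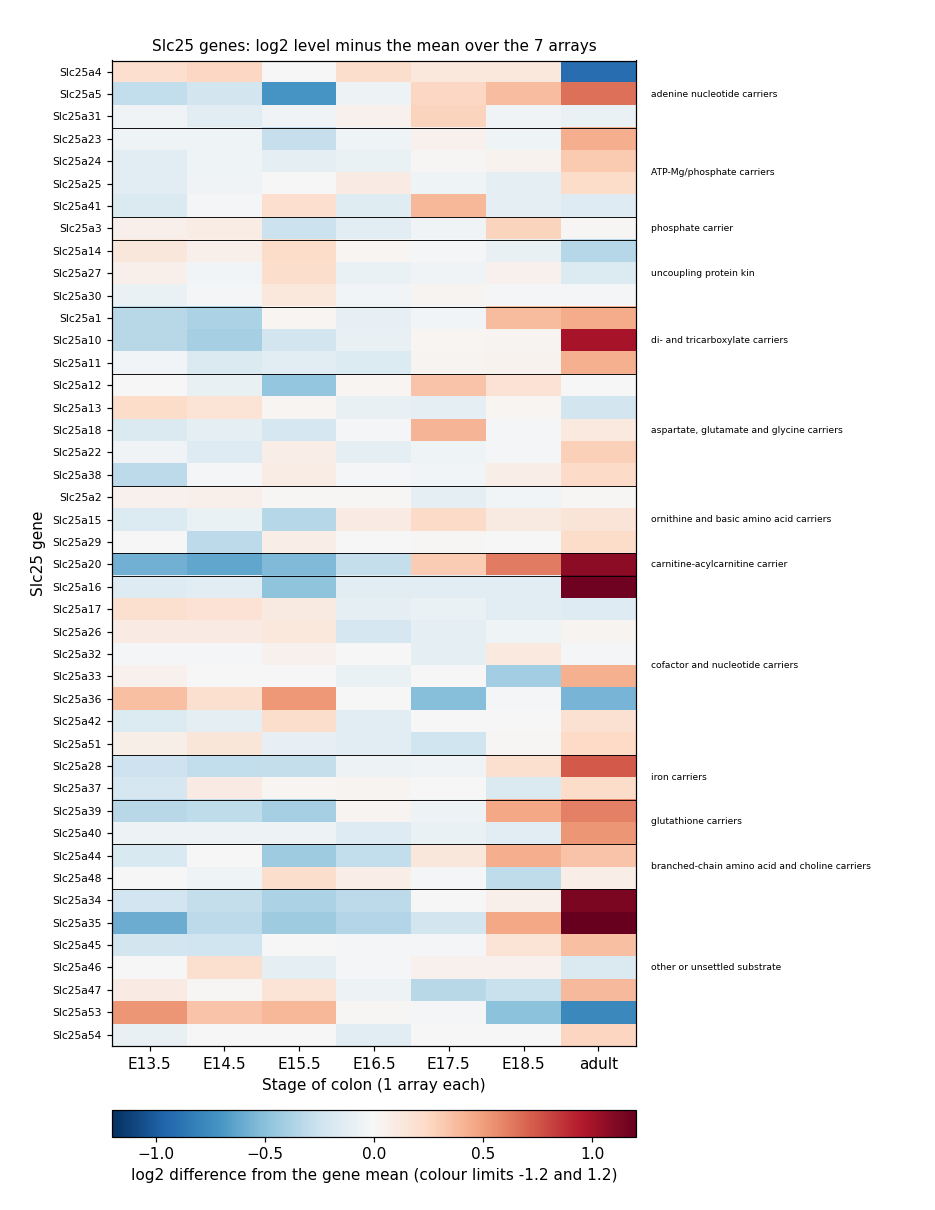
Log2 level of each of the 44 Slc25 genes (rows, grouped by substrate) at the 7 stages (columns, 1 array each), minus the gene's mean over the 7 arrays, in colour. The strongest reds stand in the adult column, at Slc25a10, Slc25a16, Slc25a20, Slc25a34 and Slc25a35, and its darkest blues at Slc25a4 and Slc25a53.

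The family as a whole moved little before birth. The median slope of the 44 genes was 0.01 log2 per day, beside 0.00 for all genes, and no Slc25 gene stepped by 1 or more on the log2 scale between neighbouring embryonic days, as 2.3% of all genes did somewhere. None formed a peak or a dip of that size, which 0.682% and 0.209% of all genes did. The median adult difference was 0.19 on the log2 scale for the family and 0.03 for all genes. Of the 44 genes, 23 (52.3%) were highest in the adult, as were 33.4% of all genes. The adult array stood 1 log2 or more above the E13.5 array in 5 of the 44 (9.44% of all genes) and as far below it in 2 (8.65%). The range over the 7 stages had a median of 0.57 log2 in the family and 0.52 over all genes.

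Slc25a20, the carnitine-acylcarnitine carrier that brings activated long-chain fatty acids to the site of their oxidation, had the steepest slope of the 44 genes. Its log2 level was 9.82, 9.78, 9.87, 10.12, 10.70 and 11.02 day by day from E13.5 through E18.5, with 11.47 in the adult. This level, the median over 2 probe sets, was flat over the first 3 stages and climbed at each stage after that. From E13.5 it was 2.29-fold higher at E18.5 and 3.13-fold higher in the adult. The slope was 0.26 log2 per day (SE 0.04, adjusted p = 0.00934, limma). The adult lay 0.61 above the fitted E18.5 level (SE 0.23), which did not pass (adjusted p = 0.12, limma). Each of its probe sets rose on its own, by 0.19 and 0.33 log2 per day. They differed early, since from E13.5 to E15.5 the first went from 11.53 to 11.98 and the second from 8.12 to 7.76. Their adult differences were 0.16 and 1.06, so the folds of the gene blend unlike probe sets.

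Slc25a20 was also the one member that rose under the study's own definition of a development-related gene, which keeps genes whose Spearman correlation with developmental order exceeds 0.9 in size and of these the 1000 most variable by median absolute deviation. That definition took 3.08% of all genes as rising and 2.42% as falling, and Slc25a53 was the one falling member. The correlation alone was passed by Slc25a10 and Slc25a20 in the rising direction, where 6.5% of all genes passed, and by Slc25a17 and Slc25a53 in the falling direction, where 7.73% did. The correlation was 0.96 in size for each of these 4 genes.

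Among the other genes of the carnitine shuttle, 1 of 5 measured rose. It was Cpt1a, the outer-membrane enzyme that makes acylcarnitines, with 8.99 at E13.5, 10.77 at E18.5, then 11.29 in the adult (slope 0.32 log2 per day, SE 0.07, adjusted p = 0.024, limma). Cpt2, which turns acylcarnitines back into acyl-CoA inside, had a slope of 0.20 (SE 0.06) that did not pass (adjusted p = 0.0828, limma). None of the 5 was called in the adult.

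The RefSeq promoter of Slc25a20, the gene with the steepest slope, is shown as the 250 bases before its start, at chr9:108661886-108662135 on the plus strand of GRCm38.p6. Capitals would mark any of 5 letter patterns searched on both strands, which were GCGCATGCG (NRF1), TCAAGGTCA (ERR), CAAAGTCCA (HNF4), TTTATGG or TTTACGG (CDX) and CCAAT.

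Slc25a20: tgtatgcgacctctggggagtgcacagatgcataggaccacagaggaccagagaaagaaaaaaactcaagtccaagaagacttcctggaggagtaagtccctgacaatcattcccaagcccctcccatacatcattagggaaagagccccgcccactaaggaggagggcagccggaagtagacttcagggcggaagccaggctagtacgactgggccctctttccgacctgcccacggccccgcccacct

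None of these letters stood in this window. The search covered 300 bases of each promoter, the bases shown and a stretch after the start. Among the 43 promoters of the 34 Slc25 genes that the table held, none had the NRF1, ERR or HNF4 letters, which stood in 1.75%, 0.423% and 0.475% of all 32851 promoters. The CDX letters stood in 2 of the 43, those of Slc25a25 and Slc25a28, and in 3.69% of all promoters. CCAAT stood in 21 of the 43 (48.8%) and in 37.4% of all.

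The di- and tricarboxylate carriers held 2 of the genes that rose, among 3 measured. Slc25a1 exports citrate, which the cytosol uses to build fatty acids and sterols. Its log2 level was 6.44, 6.39, 6.79, 6.68, 6.74 and 7.15 day by day from E13.5 through E18.5, with 7.21 in the adult. It was lowest at the 2 earliest stages, and the adult was close to E18.5. The slope was 0.13 log2 per day (SE 0.03, adjusted p = 0.0339, limma), and the adult difference of 0.20 (SE 0.17) did not pass (adjusted p = 0.508, limma).

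Slc25a10 exchanges malate or succinate for phosphate. Its log2 level was 6.86, 6.80, 6.98, 7.11, 7.22 and 7.23 day by day from E13.5 through E18.5, with 8.19 in the adult. The embryonic levels spread over less than the step from E18.5 to the adult. The slope was 0.09 log2 per day (SE 0.02, adjusted p = 0.023, limma). The adult stood 0.92 above the fitted E18.5 level, 1.90-fold (SE 0.11 log2, adjusted p = 0.00171, limma), past the p threshold and short of the size needed for a call. The probe sets of Slc25a10 differed, since 1 had a slope of 0.21 and an adult difference of 1.38 and the other a slope of -0.02 and an adult difference of 0.47.

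Slc25a11, which exchanges oxoglutarate for malate, was 7.56 at E13.5, 7.63 at E18.5, then 8.02 in the adult and was not called (adult difference 0.43, SE 0.12, adjusted p = 0.0509, limma). Of the 6 cytosolic genes of citrate use, Me1 rose, which makes NADPH from malate (slope 0.11 log2 per day, SE 0.03, adjusted p = 0.0258, limma). The other 5 were not called in the slope and none of the 6 in the adult. Mpc1, a subunit of the pyruvate carrier, which belongs to another family, was 1.39 log2 higher in the adult than the fitted E18.5 level (SE 0.30, adjusted p = 0.0217, limma). No other gene among the 4 measured of that list (pyruvate carrier and outer membrane channels) was called.

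**Figure D2:**
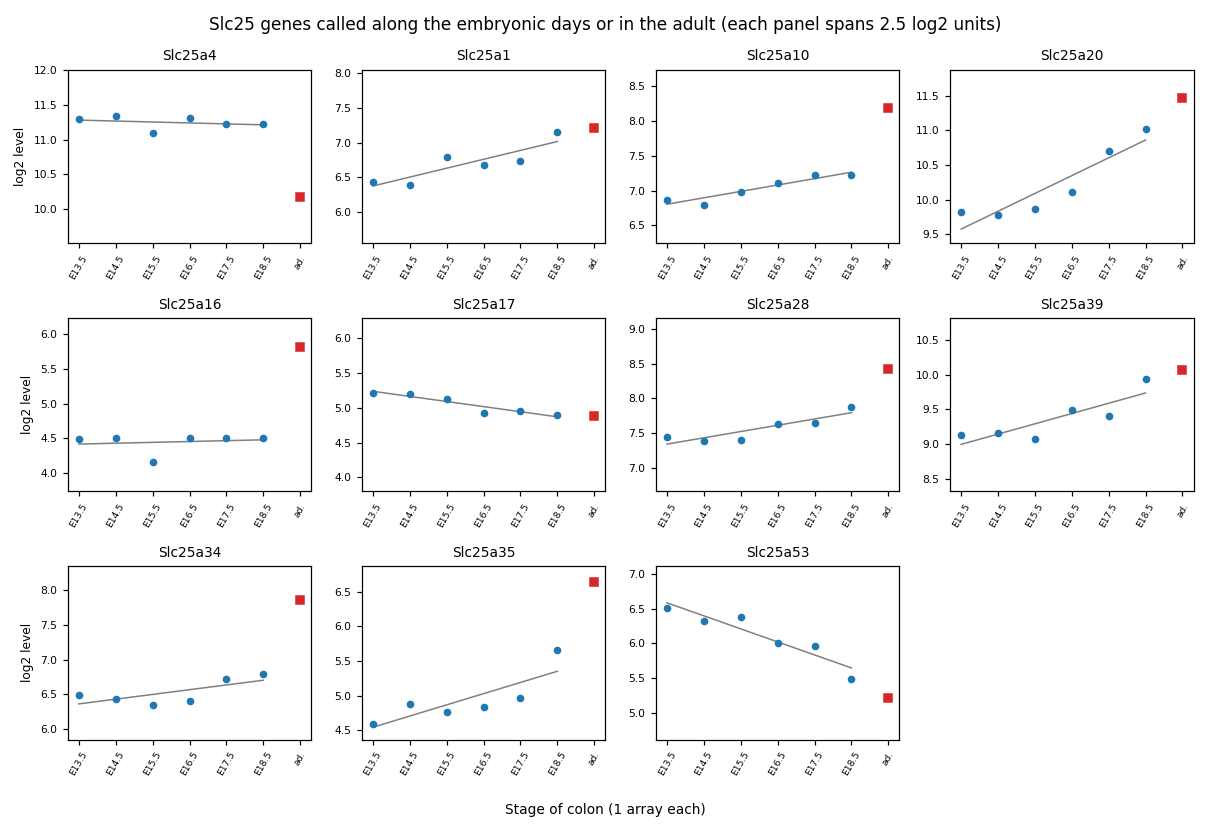
Log2 level (vertical axis) at the 7 stages (horizontal axis, 1 array each) of the 11 Slc25 genes called in the slope or in the adult, with embryonic arrays as blue circles, the adult as a red square and the fitted embryonic line in grey. Slc25a20 and Slc25a53 slope in opposite directions, and the adult stands far from a nearly level line for Slc25a4 and Slc25a16.

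Of the 3 ADP/ATP carriers, which hand ATP to the cell, 1 was lower in the adult and none passed in the slope. Slc25a4, the form that predominates in heart and skeletal muscle, was 11.29, 11.34, 11.10, 11.30, 11.22 and 11.22 day by day from E13.5 through E18.5, with 10.18 in the adult. The embryonic arrays lay close together and the adult lay below all of them, 2.05-fold under the fitted E18.5 level (difference -1.04 log2, SE 0.12, adjusted p = 0.00189, limma). That call rested on part of its 4 probe sets. The adult difference was -1.05 and -1.01 in the probe sets that passed, and -0.32 and 0.26 in the others. One of the probe sets that passed carries the mark by which the array maker flags possible binding of related transcripts.

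Slc25a5, the form of proliferating cells and many other tissues, was 11.35, 11.44, 10.95, 11.59, 11.90 and 12.03 day by day from E13.5 through E18.5, with 12.32 in the adult. Apart from a low E15.5 array, each stage was above the one before. Its slope of 0.15 log2 per day (SE 0.06) did not pass (adjusted p = 0.111, limma). Without the E15.5 array the slope was 0.14 (SE 0.02) and passed (adjusted p = 0.00751, limma). All 8 of its probe sets had slopes above 0 and 3 of the 8 passed on their own. The same 3 probe sets differed by -0.12, -0.01 and 0.02 log2 between E14.5 and E15.5, while the other 5 were lower at E15.5 by 0.46 to 0.50. Of the 8, 6 carry the same mark of possible binding to related transcripts, so their signal could include near-identical copies of the gene.

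The log2 difference of Slc25a4 from Slc25a5 had a slope of -0.17 per embryonic day, which did not pass after adjustment (exact permutation test over 720 orders, two-sided, p = 0.0472, adjusted p = 0.157 over 10 pairs). Over the order of all 7 stages, an analysis added after the data were seen, it changed by -0.30 per stage (exact permutation test, p = 0.00675, adjusted p = 0.0337). The third form, Slc25a31, which is known from testis, stayed below the lower quartile of all genes on every array.

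**Figure D3:**
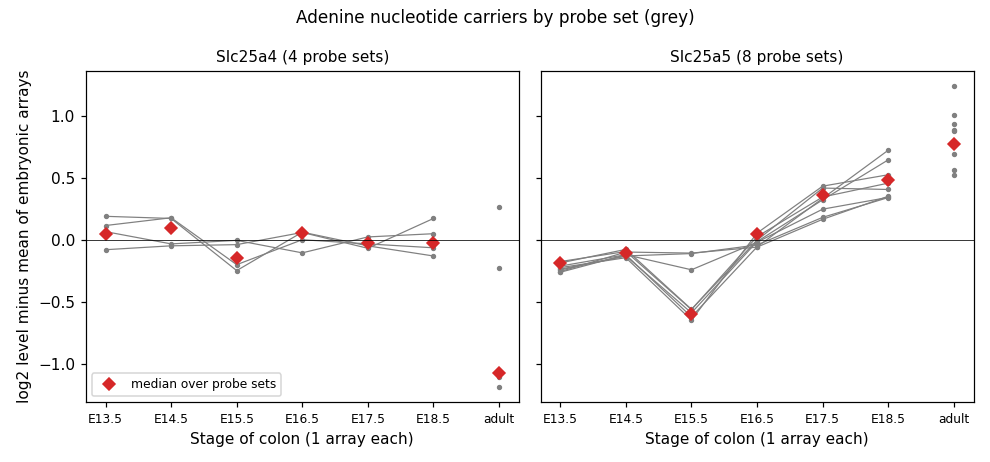
Log2 level minus the mean of the embryonic arrays (vertical axis) at the 7 stages (horizontal axis, 1 array each) for each probe set (grey) of Slc25a4 and Slc25a5, with the median used as the gene value in red. All 8 probe sets of Slc25a5 end above their embryonic mean in the adult, while the 4 of Slc25a4 lie on both sides of it.

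The promoters of both ADP/ATP carriers are shown because the adult array was the lowest of the 7 for one gene and the highest for the other, with CCAAT in capitals on either strand. The first is at chr8:46211063-46211312, minus strand, and the second at chrX:36795347-36795596, plus strand, of GRCm38.p6.

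Slc25a4: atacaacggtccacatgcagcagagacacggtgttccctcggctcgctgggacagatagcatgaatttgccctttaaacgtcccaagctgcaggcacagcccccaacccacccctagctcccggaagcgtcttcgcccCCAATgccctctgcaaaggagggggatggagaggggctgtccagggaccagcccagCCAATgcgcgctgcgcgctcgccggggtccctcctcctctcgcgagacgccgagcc
Slc25a5: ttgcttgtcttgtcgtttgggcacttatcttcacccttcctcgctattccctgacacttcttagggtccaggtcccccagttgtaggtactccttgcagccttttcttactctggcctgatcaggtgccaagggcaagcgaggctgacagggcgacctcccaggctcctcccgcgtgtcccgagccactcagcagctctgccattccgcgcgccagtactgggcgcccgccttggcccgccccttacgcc

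CCAAT stood at 2 places in the window of Slc25a4 and not in that of Slc25a5, and the other patterns stood in neither. What this has to do with the levels was not tested.

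The remaining carriers of phosphate and of adenine nucleotides were not called. Slc25a3, which brings in the phosphate for ATP synthesis, was 9.14 at E13.5, 8.81 at E15.5, 9.35 at E18.5, then 9.09 in the adult, and was not called (slope 0.02, SE 0.04, adjusted p = 0.801, limma). That value averages 2 probe sets with adult differences of 0.56 and -0.63 and slopes of 0.09 and -0.04, none of which was called. None of the 4 ATP-Mg/phosphate carriers, which adjust the adenine nucleotide pool, was called. Of these, Slc25a23 was 6.76 at E13.5, 6.76 at E18.5, then 7.25 in the adult (adult difference 0.47, SE 0.14, adjusted p = 0.0629, limma). None of the 3 relatives of the uncoupling proteins was called either. Slc25a14 was 10.13 at E13.5, 9.90 at E18.5, then 9.66 in the adult (slope -0.05, SE 0.02, adjusted p = 0.229, limma).

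The median over probe sets hides a fall in 1 of the 4 probe sets of Slc25a27, also known as uncoupling protein 4. That probe set was 9.11, 9.17, 8.46, 8.27, 7.99 and 7.84 day by day from E13.5 through E18.5, with 6.79 in the adult. From E14.5 on, each stage of that probe set was lower than the one before. It fell by 0.29 log2 per day (slope -0.29, SE 0.04, adjusted p = 0.00427, limma over single probe sets). Its adult difference of -0.96 passed the p threshold (adjusted p = 0.015, limma) and not the size. The other probe sets of Slc25a27 had slopes of -0.05 to 0.05 and set the value of the gene. They were dim, at 5.05, 5.28 and 4.73 on the E13.5 array, where the lower quartile of all genes was 5.06. Whether they were above background is not known. Other uncalled genes that had a probe set whose slope passed alone were Slc25a5, upward, and Slc25a26 and Slc25a36, downward. How often this happens among all genes was not counted, so it says nothing about the family.

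Creatine kinases carry the energy of exported ATP onward. Of 7 genes for creatine kinases, creatine synthesis and its transport 4 rose. Gatm, a creatine synthesis enzyme, had a slope of 0.57 log2 per day (SE 0.12, adjusted p = 0.0201, limma). Its level was 6.08, 6.06, 6.45, 6.45, 7.51 and 9.20 day by day from E13.5 through E18.5, with 6.45 in the adult. Ckmt1, the mitochondrial kinase, had the steepest slope of the 7 (1.14 log2 per day, SE 0.09, adjusted p = 0.000862, limma). Slc6a8, the creatine transporter, was also 1.54 log2 higher in the adult than the fitted E18.5 level (SE 0.20, adjusted p = 0.00272, limma).

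None of the 8 carriers of aspartate, glutamate, glycine, ornithine or basic amino acids was called. Slc25a15 exchanges ornithine for citrulline. It was 6.11 at E13.5, 6.39 at E18.5, then 6.43 in the adult (slope 0.08, SE 0.03, adjusted p = 0.179, limma). That value averages 2 probe sets with slopes of 0.19 and -0.03, neither of which passed. Of the 9 enzymes of citrulline synthesis and the urea cycle 5 rose. Cps1 and Otc, the mitochondrial enzymes that make citrulline, had slopes of 1.11 log2 per day (SE 0.09, adjusted p = 0.00102, limma) and 0.78 (SE 0.09, adjusted p = 0.00262, limma). Cps1 was then lower in the adult than its fitted E18.5 level (difference -2.66 log2, SE 0.46, adjusted p = 0.00875, limma). Arg2, the mitochondrial arginase, was 1.86 log2 higher (SE 0.16, adjusted p = 0.000558, limma).

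Slc25a12 and Slc25a13 are the aspartate-glutamate carriers of the malate-aspartate shuttle. Slc25a12 was 5.32 at E13.5, 4.85 at E15.5, 5.49 at E18.5, then 5.32 in the adult (slope 0.07, SE 0.05, adjusted p = 0.396, limma). Slc25a13 was 7.97 at E13.5, 7.77 at E18.5, then 7.52 in the adult (slope -0.06, SE 0.02, adjusted p = 0.172, limma). These slopes had opposite signs, and their difference of 0.13 log2 per day did not pass (exact permutation test, two-sided, p = 0.128, adjusted p = 0.227). None of the 4 shuttle enzymes measured was called. Slc25a44, a carrier of branched-chain amino acids, was 5.79 at E13.5, 6.41 at E18.5, then 6.32 in the adult and was not called (slope 0.10, SE 0.05, adjusted p = 0.241, limma).

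Among the carriers of cofactors and nucleotides, 1 of 8 measured was higher in the adult and 1 fell in the embryo. Slc25a16, linked to the supply of coenzyme A, was 4.49, 4.51, 4.16, 4.51, 4.51 and 4.51 day by day from E13.5 through E18.5, with 5.81 in the adult. Its 1 probe set was nearly flat in the embryo and highest in the adult, with a difference from the fitted E18.5 level of 1.33 log2 (SE 0.17, adjusted p = 0.00259, limma). The embryonic values lay under the lower quartile of all genes, and the table does not say whether a probe set was above background, so no fold is given. Exact repeats such as its 4 equal embryonic values are common in this table. On each array 20.9% to 28.4% of the values were shared by several probe sets, and 10 of the 44 Slc25 genes had the same value on 3 or more arrays, as did 13.0% of all genes.

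Slc25a17, which carries cofactors into peroxisomes and not mitochondria, was 5.22, 5.20, 5.13, 4.92, 4.95 and 4.90 day by day from E13.5 through E18.5, with 4.88 in the adult. The first 3 stages lay above the later ones. The slope was small, at -0.07 log2 per day (SE 0.02, adjusted p = 0.0424, limma), and neither of its probe sets passed alone. The brighter one, 6.26 at E13.5 and 5.81 at E18.5, had a slope of -0.14 (adjusted p = 0.0503, limma over single probe sets). The other, 4.18 at E13.5 and 3.98 at E18.5, had a slope of -0.01. With the brighter one as the gene value the slope passed (adjusted p = 0.044, limma). From E16.5 on, the gene values, medians over these probe sets, lay under the lower quartile of all genes. Slc25a33, a pyrimidine nucleotide carrier, was 6.87 at E13.5, 6.40 at E18.5, then 7.25 in the adult. Its adult difference of 0.67 log2 (SE 0.15, adjusted p = 0.0227, limma) passed the p threshold but not the size.

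The mitoferrins, which bring in iron for haem and iron-sulphur clusters, were 1 called and 1 not. Slc25a28, the form of most tissues, was 7.45, 7.39, 7.40, 7.63, 7.65 and 7.88 day by day from E13.5 through E18.5, with 8.43 in the adult. It was level over the first 3 stages and highest in the adult. The slope was 0.09 log2 per day (SE 0.02, adjusted p = 0.043, limma), and the adult difference of 0.63 (SE 0.13, adjusted p = 0.0147, limma) was short of the size for a call. Slc25a37, the form of red cell precursors, was 7.51 at E13.5, 7.53 at E18.5, then 7.93 in the adult (slope -0.0049, SE 0.03, adjusted p = 0.947, limma). The slope of their difference did not pass (exact permutation test, two-sided, p = 0.136, adjusted p = 0.227).

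Of 12 genes measured of haem and iron-sulphur synthesis, none was called in the slope. Alas1, the rate-limiting enzyme of haem synthesis outside red cells, was 2.51 log2 higher in the adult (SE 0.23, adjusted p = 0.000604, limma). Of 9 red cell markers, the 3 embryonic globins Hbb-y, Hbb-bh1 and Hba-x fell. The mean log2 level of the other 6 was 5.16 on the E13.5 array and 4.97 on the E18.5 array, and none of them was called. The part of red cells in the levels of the iron carriers was not tested.

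Slc25a39 and Slc25a40 bring glutathione, the antioxidant peptide, into mitochondria. Slc25a39 was 9.13, 9.16, 9.07, 9.49, 9.41 and 9.93 day by day from E13.5 through E18.5, with 10.07 in the adult. The first 3 stages were alike, and E18.5 and the adult were the highest. The slope was 0.15 log2 per day (SE 0.04, adjusted p = 0.0378, limma). Of its 5 probe sets 2 passed alone and 1 had a slope of -0.01. The one with the highest mean had a slope of 0.15 that did not pass (adjusted p = 0.0997, limma over single probe sets). Slc25a40 was 7.61, 7.61, 7.61, 7.51, 7.58 and 7.54 day by day from E13.5 through E18.5, with 8.19 in the adult. It was level in the embryo (slope -0.01, SE 0.02, adjusted p = 0.671, limma), and the adult was 0.65 higher (SE 0.09, adjusted p = 0.00392, limma), under the size for a call. The pair's difference had a slope of 0.16 log2 per day, which did not pass after adjustment (exact permutation test, two-sided, p = 0.0333, adjusted p = 0.157).

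Of 7 carriers with another or an unsettled substrate, 1 fell in the embryo and 2 were higher in the adult. Slc25a53 was 6.52, 6.33, 6.39, 6.00, 5.97 and 5.49 day by day from E13.5 through E18.5, with 5.21 in the adult. Apart from E15.5, each stage was lower than the one before, and the adult was 2.47-fold under E13.5. The slope was -0.19 log2 per day (SE 0.03, adjusted p = 0.00825, limma). Its probe sets differed in size, with slopes of -0.30, which passed, and -0.08, which did not.

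Slc25a35 was 4.59, 4.88, 4.76, 4.84, 4.97 and 5.65 day by day from E13.5 through E18.5, with 6.64 in the adult. It was highest at E18.5 and in the adult. The values through E17.5 lay under the lower quartile of all genes, so no fold is given here either. The adult difference was 1.29 log2 (SE 0.24, adjusted p = 0.0112, limma), and the slope of 0.16 (SE 0.05) narrowly missed (adjusted p = 0.0516, limma). Slc25a34 was 6.50, 6.44, 6.34, 6.41, 6.73 and 6.79 day by day from E13.5 through E18.5, with 7.86 in the adult. The adult was above every embryonic array, 2.22-fold over the fitted E18.5 level (1.15 log2, SE 0.16, adjusted p = 0.00378, limma). Slc25a47, best known from liver, was 6.55 at E13.5, 6.18 at E18.5, then 6.84 in the adult, with an adult difference of 0.68 (SE 0.14, adjusted p = 0.019, limma) that was under the size for a call.

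**Figure D4:**
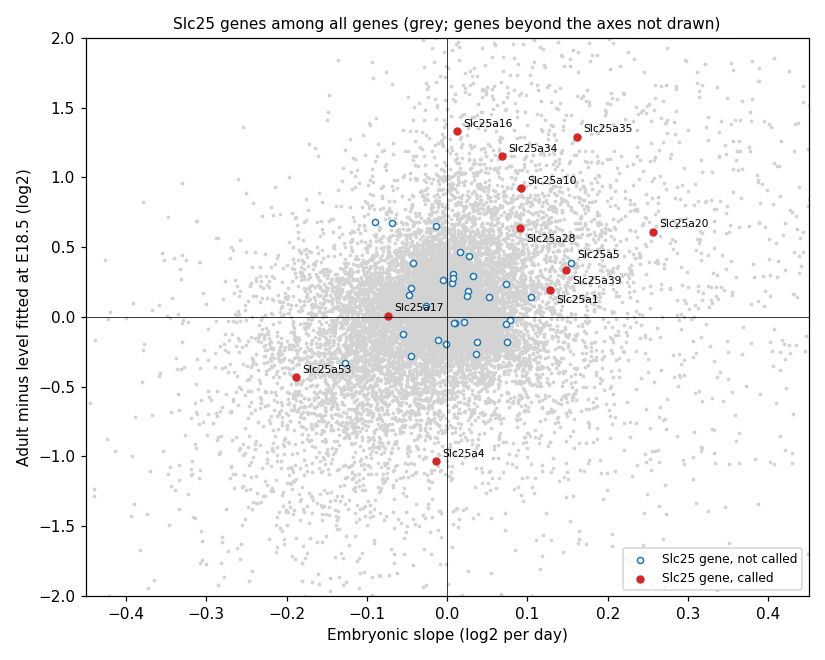
Embryonic slope (horizontal axis, log2 per day) against the adult minus the fitted E18.5 level (vertical axis, log2) for all genes (grey) and the Slc25 genes, filled red where called and open blue where not. Slc25a20 lies farthest to the right, Slc25a53 farthest to the left, Slc25a16 highest and Slc25a4 lowest among the Slc25 genes.

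In all, 9 Slc25 genes (20.5%) passed the p threshold in the adult, as did 18.6% of all genes, and the 5 that fell short of the size (Slc25a10, Slc25a28, Slc25a33, Slc25a40 and Slc25a47) were all on the higher side. Of all genes, 5.99% passed at under that size on the higher side and 5.14% on the lower. The 33 genes called in neither comparison had slopes from -0.13 (Slc25a36) to 0.15 (Slc25a5) log2 per day and adult differences from -0.33 (Slc25a36) to 0.68 (Slc25a47). Slc25a30, Slc25a31 and Slc25a54 were below the lower quartile of all genes on every array, which 18.4% of all genes were. Of the 10 pairs of like carriers compared, none was called after adjustment and 3 had an unadjusted p under 0.05 (exact permutation tests). Slc25a14 and Slc25a30 were the third, with a slope of -0.05 log2 per day (exact permutation test, p = 0.00556, adjusted p = 0.0556, where 0.00278 is the smallest p the design allows).

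None of the 12 genes that import carriers into mitochondria was called in either comparison, nor were Ucp1, Ucp3, Mtch1 and Mtch2, the 4 members of the wider family measured under other names.

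Marker genes of several cell types changed over the same stages. Of 12 markers of colon epithelium 11 rose in the embryo and 4 were higher in the adult, with mean log2 levels of 7.61 at E13.5, 9.30 at E18.5, then 11.34 in the adult. Of 8 smooth muscle markers 6 rose, 3 of 7 neuron markers rose, and all 7 markers of dividing cells fell. In the adult, 3 of 8 adipocyte markers and 3 of 5 pancreatic acinar markers were higher, and 5 of 7 neuron markers were lower, while none of 10 skeletal muscle markers was called. Of 7 liver markers 1 rose, and none was called in the adult. In whole tissue, fewer cells of a type and less RNA per cell cannot be told apart, and the part of cell makeup in the carrier levels was not tested. The adult array also had a 5′ minus 3′ signal of -2.41 log2 for Gapdh, against -1.59 to -1.29 on the embryonic arrays, a measure of RNA integrity whose part was not tested. At E15.5, 21 of the 44 Slc25 genes (47.7%) lay farthest from their embryonic line, as did 41.7% of all genes. Without that array 7 Slc25 genes rose and 3 fell, beside 11.4% and 13.9% of all genes, with Slc25a5, Slc25a45 and Slc25a47 added to the 7 called with it.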

How the data were processed

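Colon RNA of 7 stages was measured on 7 arrays, 1 a stage. The deposited table holds log2 values made by the authors with RMA (affy 1.22.1 in R 2.9.2, credited to the submitters' processing notes). Since RMA sets all arrays to the same distribution, it removes any change common to most genes. Median log2 levels of the arrays over all genes ran from 6.07 to 6.17, and depth is not defined for arrays, whose number limits the precision.

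From the 45101 probe sets, the 34958 that name 1 gene were kept, 932 naming several and 9211 naming none were left out, and current symbols were looked up by gene identifier (18033 of 18195 matched in a table of mouse genes). A gene took the median over its probe sets, the study's rule for its tumor arrays, with no filter on dim genes. limma 3.58.1 in R 4.3.3 (lmFit, eBayes) fitted a slope per embryonic day and an adult term for all 18194 genes, with 4 residual degrees of freedom. Slopes of the difference in 10 pairs of like carriers were tested by exact permutation of the embryonic arrays. The members, gene lists, pairs and tests were chosen with earlier results of these data known. The scripts were tested on simulated data.

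Values are given for every member called, for members of pairs with an unadjusted p under 0.05 and for 1 or 2 uncalled members of a substrate group, and for other lists the genes with the largest changes among those called. A few further genes (such as Cpt2, Slc25a11, Slc25a27, Slc25a33 and Slc25a47) were named after their values were seen. Alternatives were the brightest probe set, array centring, a filter on dim genes, other eBayes settings, all probe sets passing, another adult reference, the order of all 7 stages and leaving out each embryonic array. Leaving out the adult array was added after the data were seen. Promoters are from RefSeq, build GRCm38.p6. Features of the proteins were not analysed here.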

Additional observations from a re-analysis of the deposited data

How the results depend on the processing

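The count of 7 Slc25 genes with a called slope was 9 with the brightest probe set and 10 over the order of all 7 stages. It was 2 (Slc25a1 and Slc25a20) when every probe set of a gene had to pass. Slc25a1 has only 1 probe set, so no agreement between probe sets was tested there. Leaving out 1 embryonic array gave 0 to 10 called slopes, with 0 without E18.5, 2 without E14.5 or E16.5, 3 without E13.5 or E17.5 and 10 without E15.5, while all genes gave 1884 to 4599 and 3544 with all arrays. Slc25a20 and Slc25a53 lost their call only without E18.5 among the 12 settings run for each. Slc25a1 lost it in 4 of 12 settings, Slc25a10 in 5 of 12, Slc25a17 in 5 of 11, and Slc25a28 and Slc25a39 in 6 of 12 each. Leaving out the adult array is among these settings and could not change a slope, since that array has its own term. For Slc25a1 and Slc25a28, with 1 probe set each, the brightest probe set gave the main slope again. The lost calls fell in the runs that left out an array, except for Slc25a28 with centred arrays (adjusted p = 0.0585) or other eBayes settings (adjusted p = 0.0719), and Slc25a39 with the brightest probe set (adjusted p = 0.0883, all limma).

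The 4 adult calls numbered 3 to 4 in every alternative, and 4 whichever embryonic array was left out. No alternative could test the 1 adult array on which each of these calls rests. Slc25a16, Slc25a34 and Slc25a35 have 1 probe set each, so the settings on probe sets could not test them either. Slc25a16, Slc25a34 and Slc25a35 held in each setting in which they were tested, and Slc25a4 lost its call with its brightest probe set (-0.32 log2, adjusted p = 0.113, limma). The 2 development-related genes became 4 with the brightest probe set, 1 with centred arrays or the standard deviation, 0 with the embryonic arrays alone or a perfect rank order, and 0 to 3 with 1 array left out (0 without E17.5 or E18.5, 1 without E16.5). Pairs called numbered 0 in all alternatives but the order of all 7 stages, where 2 were called. With 1 array left out, 120 orders give a smallest p of 0.0167 and a single pair cannot pass after adjustment, so those counts of 0 say nothing about stability. The called slope or adult difference of each of the 11 genes kept its sign in the alternatives run on gene values. Single probe sets had the opposite sign for Slc25a10 (slope -0.02), Slc25a39 (slope -0.01) and Slc25a4 (adult difference 0.26). No paired analysis was possible because each stage has 1 array, so the groups share fewer than 2 replicate numbers.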
